A study of Mus musculus with 6 samples.

Results

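Fibroblasts are recognised by genes that build and crosslink the extracellular matrix, receive signals at the cell surface, shape the cytoskeleton and hold cells in the mesenchymal state. DNA methylation was measured at 40 such fibroblast and mesenchyme genes, taken by name: 8 collagens, 10 other matrix proteins and crosslinkers, 6 surface receptors, 4 cytoskeletal and cytoplasmic proteins and 12 transcription factors. A CpG was counted for a gene when it lay between 5 kb upstream of the gene start and the gene end in mm10 and had at least 10 reads in each of the 3 cell types, summed over 2 libraries per cell type. Of 1106794 such compared CpGs in the genome, 2037 lay in these genes, none of them in more than 1 of the genes, and 39 of the 40 genes held at least 1. Across the whole annotation 31969 genes held at least 1.

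The data are reduced representation bisulfite sequencing (RRBS) of male mouse pluripotent cells, a method that reads fragments cut at CCGG, the site of the enzyme MspI, and therefore favours CpG-dense sequence. Mouse embryonic stem cells (mESCs) were of the E14 line at passages 20 to 30. Chemically induced pluripotent stem cells (C-iPSCs) came from OG2 mouse embryonic fibroblasts (OG2-MEFs), which carry a green fluorescent reporter, and factor-induced cells (4F-iPSCs) came from OG2-MEFs through retroviral Oct4, Sox2, Klf4 and c-Myc, both at passages 5 to 10. The study asked whether the route of reprogramming leaves different methylation in iPSCs, and the comparisons ask it of genes that the starting fibroblasts are known for. The C-iPSC medium held valproic acid, CHIR99021, a TGF-beta receptor inhibitor, tranylcypromine, forskolin, AM580 and EPZ004777 with bFGF, and its next stage held SGC0946, DZNep and 5-aza-2'-deoxycytidine, which blocks DNA methyltransferases, in place of EPZ004777. All cells were kept in 2i (CHIR99021 and PD0325901) with LIF and serum, according to the labels on mitomycin-treated MEF feeders that were taken off on gelatin before collection, whereas the methods of the paper name gelatin-coated plates and no feeders. Passage number, mouse strain and origin of the cells differ between mESCs and both iPSC types, so these and the cell type cannot be told apart. No fibroblast library was part of the comparison, so whether a level was kept from the fibroblasts was not measured here.

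Many of these genes are active in fibroblasts, and during reprogramming a mesenchymal-to-epithelial transition shuts many of them down. Their expression was not examined here. Snai1, Snai2, Twist1, Zeb1 and Zeb2 are the repressors that hold epithelial genes off in mesenchymal cells. Fibrillar collagens, fibronectin and the small proteoglycans form the matrix, the lysyl oxidases crosslink it, and PDGF and discoidin domain receptors sense growth factors and collagen. In mammalian cells, promoters rich in CpGs are usually unmethylated whether or not the gene is transcribed, while CpGs inside gene bodies are usually methylated. The 2i inhibitors lower methylation across the genome of mouse pluripotent cells. "Memory" of a cell of origin is the name given to methylation that an iPSC shares with its parent cell and not with embryonic stem cells.

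The libraries were deep, with 75077465 and 53694199 reads on CpGs in mESC replicates 1 and 2, 91533371 and 84792206 in C-iPSCs, with 96534037 and 94215636 for 4F-iPSCs. The median covered CpG had 31 to 54 reads per library. For each gene and library the methylation level is the share of methylated reads among all reads of its compared CpGs, taken apart for promoter CpGs, within 1 kb of an annotated transcript start of the gene, and for the remaining CpGs of its upstream part and body. Genes with at least 3 compared CpGs in a class were tested with a quasi-binomial model that uses the spread between libraries, and a gene is called here when its p, adjusted over all genes, is under 0.05. The labels do not say whether replicates were separate cultures, so p measures the spread between these libraries, which may be technical.

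Promoters were measured unevenly. Of the 40 genes 27 had at least 3 compared promoter CpGs, Col6a1 and Sparc had 2 each, and 11 had 0: Col1a1, Col3a1, Col6a3, Postn, Dcn, Lum, Thbs2, Cd44, Acta2, S100a4 and Prrx1. Most of those 11 genes have CpG-poor starts, such as Col3a1 with 10 CpGs in 2001 bp and Postn without any CCGG, whereas the promoter of Zeb1 holds 202 CpGs and that of Twist1 184. Away from promoters 35 genes had at least 3 compared CpGs. Postn, Acta2 and Tagln had 2 each there, and Lum and Snai2 had 0, so that the proteoglycan gene Lum was not measured at all. In total 942 promoter CpGs and 1095 remaining CpGs were compared.

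Away from promoters the fibroblast genes carried the lowest methylation in mESCs and the highest in 4F-iPSCs, with C-iPSCs between them. The median level over the 35 genes was 36.4% and 46.0% in the mESC libraries, 53.6% and 65.7% in the C-iPSC libraries and 70.2% and 70.1% in the 4F-iPSC libraries. The libraries of each cell type therefore sat apart from those of the next, and the C-iPSC pair was spread widest. Over all 22403 genes the medians were 37.5%, 42.5%, 51.8%, 63.6%, 69.8% and 71.3% in the same order. In 26 of the 35 genes both mESC libraries lay below both C-iPSC libraries and these below both 4F-iPSC libraries, as in 60.1% of all genes.

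**Figure D1:**
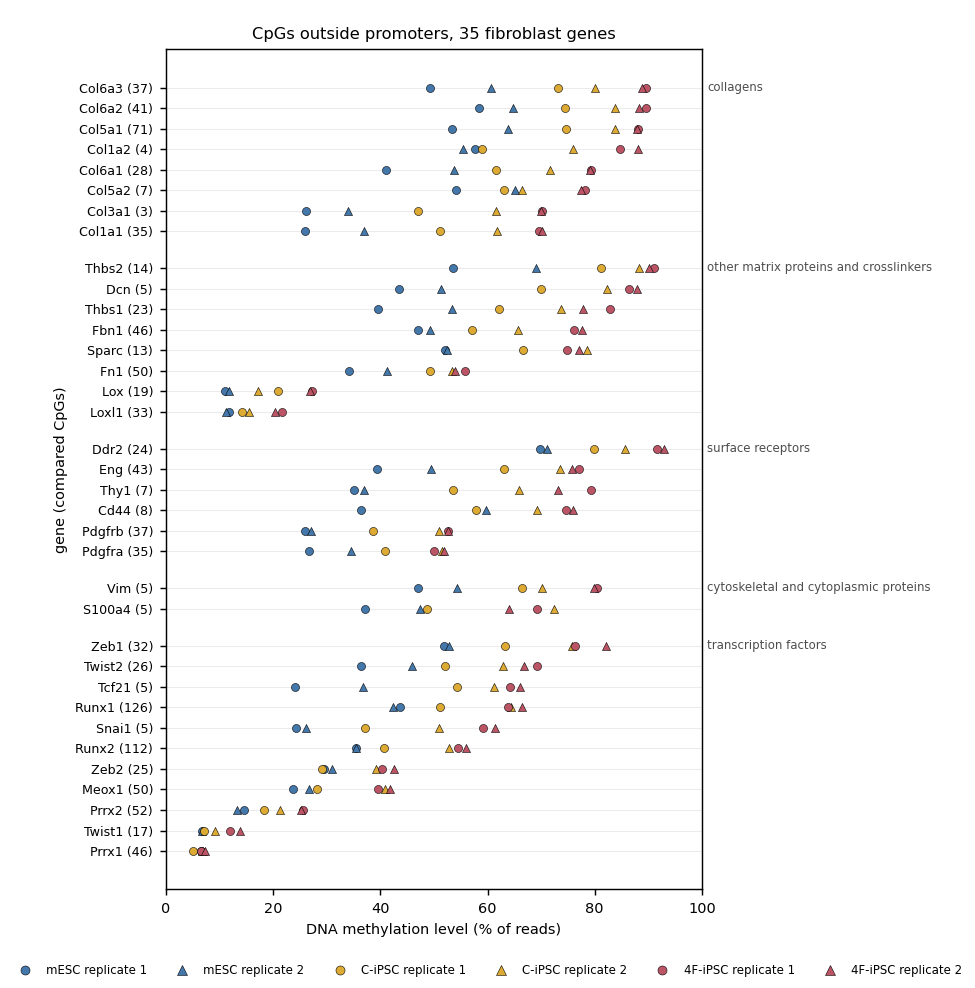
Methylation level (% of reads) of the CpGs outside promoters in 35 fibroblast genes, grouped by role, with 1 point per library, circles for replicate 1 and triangles for replicate 2, and the number of compared CpGs in brackets. Both 4F-iPSC libraries lie above both mESC libraries in 34 genes, beside 20361 of all 22403 genes, and Prrx1 stays between 5.04% and 7.29% in all 6.

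Against mESCs, the 4F-iPSCs were higher in 34 of 35 genes by the adjusted p, beside 84.6% of all 22401 genes tested, with a median difference of 26.8 percentage points for the fibroblast genes and 24.7 for all genes. C-iPSCs were higher than mESCs in 23 of 35, beside 40.6% of all genes, with median differences of 17.2 and 14.3 points. Between the iPSC types, 4F-iPSCs were higher in 3 of 35, Col1a2, Col6a3 and Fbn1, beside 12.1% of all genes, with median differences of 8.73 and 9.23 points. That count of 3 was 11 by limma on arcsine-transformed levels, 19 by limma with a replicate block and 12 with the dispersion from all 6 libraries. The 12.1% belongs to the main quasi-binomial model. Shares of all genes by the other tests, or under other choices of CpGs, promoters and gene range, are not given, here and below. Not a single one of the 35 was called lower in any of these comparisons, beside 0.0804% of all genes in C-iPSCs against mESCs, 0.156% in 4F-iPSCs relative to mESCs and 0.0982% between the iPSC types. The count of lower genes was also 0 at an unadjusted p under 0.05 and by limma.

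The counts that involve C-iPSCs changed with single libraries. With a library left out of a comparison, here and below, the spread comes only from the pair of the other cell type. A call can then be lost or gained through that spread, also where the difference is as large as before. Whether the spread or the difference moved a count was not tested. For counts with a library left out, here and below, the share of all genes is not given. Such counts therefore do not set the fibroblast genes apart from other genes. C-iPSC replicate 2 lay above replicate 1 in 34 of the 35 genes, as in 94.6% of all genes. Of C-iPSCs against mESCs, 0 of the 35 were called when either mESC library was left out, replicate 1 or replicate 2. Of 4F-iPSCs against C-iPSCs, 31 were called without C-iPSC replicate 2, 5 with only that library, and 0 without either 4F-iPSC library in turn. The median difference of C-iPSCs from mESCs was 13.1 points without mESC replicate 1 and 19.8 without mESC replicate 2. It was 21.7 without C-iPSC replicate 1 and 11 without C-iPSC replicate 2. The median difference between the iPSC types was 4.58 without C-iPSC replicate 1 and 14.1 without replicate 2. The 4F-iPSC against mESC count stayed between 33 and 34 whichever library was left out.

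**Figure D2:**
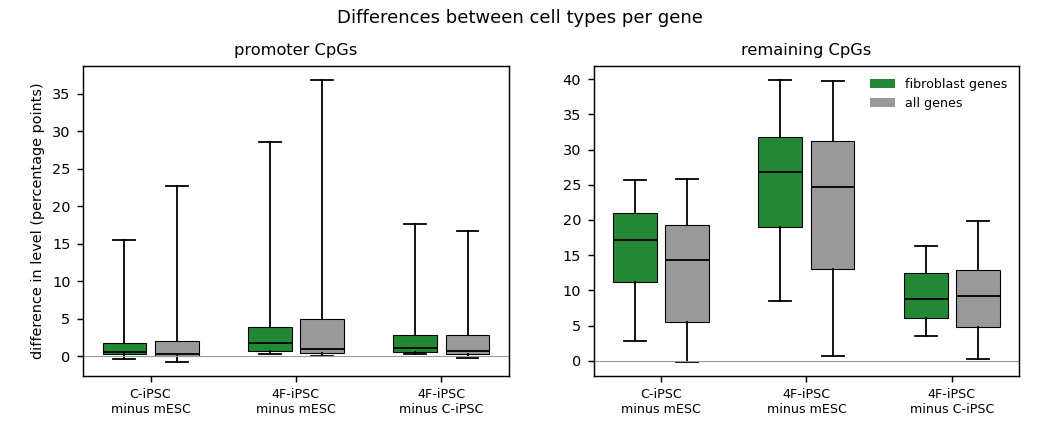
Difference in level per gene (percentage points) between cell types, for promoter CpGs and remaining CpGs, in fibroblast genes and all genes. The line is the median, the box the middle of the genes from the lower to the upper quartile, and the whiskers the percentiles 5 and 95; outside promoters the fibroblast medians are 17.2, 26.8 and 8.73 points.

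The collagens are the main product of fibroblasts, and all 8 were called higher in 4F-iPSCs than in mESCs outside their promoters, beside 84.6% of all genes. Col1a1, the major chain of type I collagen, had levels of 25.9% and 36.9% in mESC, 51.1% and 61.8% in C-iPSC and 69.7% and 70.1% in 4F-iPSC libraries over 35 CpGs. Its libraries fell into 3 groups without overlap, and the means lay 38.5 points apart between 4F-iPSCs and mESCs. Col3a1, the type III chain of soft connective tissue, was read at only 3 CpGs, with 26.1% and 34.0% in mESC, 47.0% and 61.6% in C-iPSC and 70.2% and 70.0% in 4F-iPSC libraries. Again the groups were apart, by 40.1 points between the outer means, on 247 to 587 reads per library. Col1a2, the partner chain of Col1a1, showed 57.7% and 55.4% in mESC, 59.0% and 76.0% in C-iPSC and 84.8% and 88.1% in 4F-iPSC libraries over 4 CpGs. Here C-iPSC replicate 1 lay next to the mESCs, and the 18.9 points between 4F-iPSCs and C-iPSCs (adjusted p = 0.0328) were the largest such gap of the 35 genes. The call was lost without C-iPSC replicate 1 (10.5 points) and without either 4F-iPSC library (20.6 and 17.3 points).

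Type VI collagen, the beaded filament collagen around cells, has its 3 chains in the list. Col6a3 stood at 49.2% and 60.7% in mESC, 73.2% and 80% in C-iPSC and 89.5% and 88.8% in 4F-iPSC libraries over 37 CpGs, and it was called in all 3 comparisons. Its 12.5 points between 4F-iPSCs and C-iPSCs had an adjusted p of 0.0291. That call was lost without 4F-iPSC replicate 1 (12.2 points) or replicate 2 (13 points), and also with the gene body alone or with promoters of any gene set apart. Col6a1 rose by 31.8 points from mESCs to 4F-iPSCs, Col6a2 by 27.2, and the type V chain Col5a1, which starts fibril assembly, by 29.3 over 71 CpGs. Col5a2 had the smallest difference among the collagens, 18.2 points, with mESC replicate 2 at 65.1% inside the C-iPSC range of 63.1% to 66.5%.

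Where strong differences sat close together, the sequence can be shown. The 3 stretches below are given on the gene strand of GRCm38/mm10, 5' to 3', in lower case with each compared CpG as CG in capitals, because in Col1a1 and Col6a1 they carry clustered strong differences and in Col3a1 they hold all compared CpGs. Col1a1 is at chr11:94941240-94941416, across a coding exon and an intron, 5021 to 5186 bp from the start. Col3a1 is at chr1:45315936-45316031, in an intron, 4403 to 4487 bp from the start. Col6a1 is at chr10:76721377-76721497, across a coding exon and an intron, 4677 to 4786 bp from the start.
Col1a1: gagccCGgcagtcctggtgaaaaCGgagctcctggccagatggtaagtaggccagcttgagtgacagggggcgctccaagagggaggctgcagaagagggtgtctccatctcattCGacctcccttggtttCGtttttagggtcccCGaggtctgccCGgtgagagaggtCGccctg
Col3a1: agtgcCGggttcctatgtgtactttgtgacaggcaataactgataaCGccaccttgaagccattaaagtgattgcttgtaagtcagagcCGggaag
Col6a1: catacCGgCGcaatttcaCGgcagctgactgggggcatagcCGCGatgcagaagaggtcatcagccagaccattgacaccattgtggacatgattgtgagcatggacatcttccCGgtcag
In the Col6a1 stretch all 6 CpGs differed strongly between 4F-iPSCs and mESCs, with levels of 35.7% and 55.9% in mESC, 65.2% and 70.7% in C-iPSC and 89.0% and 84.5% in 4F-iPSC libraries. The Col1a1 stretch went from 17.3% and 29.4% in mESCs through 39.2% and 53.3% in C-iPSCs to 66.2% and 61.2% in 4F-iPSCs. In both stretches the cell types did not overlap, though as runs of strong CpGs they were chosen for their difference between 4F-iPSCs and mESCs.

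Among the other matrix proteins and crosslinkers 8 of 10 genes could be tested outside promoters. All 8 were called higher in 4F-iPSCs than in mESCs, beside 84.6% of all genes, and 6 in C-iPSCs, beside 40.6%, with the lysyl oxidases Lox and Loxl1 not called there, although Lox was without C-iPSC replicate 2 (9.46 points) and by limma with the replicate block. Dcn, the proteoglycan decorin that binds collagen fibrils, had 43.5% and 51.3% in mESC, 70.1% and 82.2% in C-iPSC and 86.5% and 87.8% in 4F-iPSC libraries. The groups did not overlap, and its 28.7 points between C-iPSCs and mESCs were the most among the 35 tested genes. All 5 of its CpGs lie close together in soft-masked repeat sequence, so they do not report on the rest of the gene. Thbs1, thrombospondin 1, which activates latent TGF-beta, had 39.5% and 53.3% in mESC, 62.1% and 73.6% in C-iPSC and 82.8% and 77.9% in 4F-iPSC libraries. Its groups were apart too, 33.9 points between the outer means. Thbs2 went from 53.7% and 69.0% in mESCs to 91.1% and 90.2% in 4F-iPSCs, with C-iPSCs at 81.2% and 88.2%, just under the 4F-iPSCs.

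Fbn1 encodes fibrillin 1, the scaffold of microfibrils. It had levels of 47.0% and 49.3% in mESC, 57.2% and 65.7% in C-iPSC and 76.2% and 77.6% in 4F-iPSC libraries over 46 CpGs. The 3 cell types were apart, and the step from C-iPSCs to 4F-iPSCs, 15.5 points, was called with an adjusted p of 0.0305. That call was lost without 4F-iPSC replicate 1 (16.2 points) or replicate 2 (14.8 points), and also with the gene body alone or with promoters of any gene set apart. For Fn1, fibronectin, C-iPSCs at 49.3% and 53.4% nearly met 4F-iPSCs at 55.8% and 54.0%, while mESCs were at 34.2% and 41.3%. For Sparc, a collagen-binding secreted protein, C-iPSC replicate 2 at 78.6% lay above both 4F-iPSC libraries, at 74.8% and 77.0%. Loxl1 was low everywhere, with 11.8% and 11.2% in mESC, 14.2% and 15.6% in C-iPSC and 21.8% and 20.3% in 4F-iPSC libraries. Its 9.52 points between 4F-iPSCs and mESCs were among the 4 smallest differences, yet its libraries did not overlap and the gene was called. Lox stayed between 11.1% and 27.3%. Postn, periostin, had only 2 compared CpGs, at 54.5% and 47.9% in mESC, 67.3% and 70.4% in C-iPSC and 88.0% and 92.9% in 4F-iPSC libraries, and was not tested.

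The stretch of Thbs1 with the most strong CpGs is shown in the same way as those of the collagens. As a run of strong CpGs it was chosen for its difference between 4F-iPSCs and mESCs. It is at chr2:118113033-118113148, in a coding exon.
Thbs1: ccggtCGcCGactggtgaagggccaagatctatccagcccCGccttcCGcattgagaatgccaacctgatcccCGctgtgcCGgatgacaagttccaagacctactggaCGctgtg
The Thbs1 stretch starts 1162 bp from the transcript start, just outside its promoter window. Its 7 CpGs were at 28.8% and 43.6% in mESC, 55.0% and 65.9% in C-iPSC and 79.7% and 70.5% in 4F-iPSC libraries. The promoter CpGs of the same gene stayed low, between 4.81% and 10.9% in all 6 libraries.

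All 6 surface receptors were called higher in 4F-iPSCs than in mESCs outside promoters, beside 84.6% of all genes, and 5 of 6 in C-iPSCs, beside 40.6%. Thy1, the glycoprotein by which fibroblasts are commonly sorted and whose loss is followed in reprogramming, had the largest difference of all 35 genes. It stood at 35.1% and 37.0% in mESC, 53.6% and 65.9% in C-iPSC and 79.3% and 73.2% in 4F-iPSC libraries over 7 CpGs. The groups did not overlap, the outer means lay 40.2 points apart, and the 16.5 points between the iPSC types missed the call (adjusted p = 0.0685). Eng, endoglin, a TGF-beta co-receptor, had 39.5% and 49.5% in mESC, 63.0% and 73.6% in C-iPSC and 77.0% and 75.8% in 4F-iPSC libraries over 43 CpGs. The groups were apart, with C-iPSC replicate 2 just under the 4F-iPSCs and replicate 1 further below.

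The PDGF receptors, which drive fibroblast growth, were lower in level than the rest of their group. Pdgfra had 26.6% and 34.5% in mESC, 40.9% and 51.5% in C-iPSC and 50.1% and 51.8% in 4F-iPSC libraries, so that C-iPSC replicate 2 fell between the 4F-iPSC libraries. Pdgfrb had 26.0% and 27.1%, then 38.6% and 51.0%, then 52.6% and 52.6%, with 4F-iPSCs just above. Cd44, the hyaluronan receptor, was the member not called in C-iPSCs. Its mESC replicates differed by more than those of any other tested gene here, 36.4% against 59.6%, so that replicate 2 overlapped the C-iPSC pair at 57.9% and 69.2%. Cd44 differed by 15.6 points between C-iPSCs and mESCs, and by 3.94 to 24.0 with single libraries left out. Without C-iPSC replicate 1 it was called, at 21.7 points, and so it was by limma with the replicate block.

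The Thy1 stretch is at chr9:44047227-44047295, in an intron 1288 to 1345 bp from a start, and holds 3 CpGs that all differed strongly.
Thy1: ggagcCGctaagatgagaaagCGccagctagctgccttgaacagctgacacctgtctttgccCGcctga
Its levels were 25.5% and 28.3% in mESC, 44.4% and 60.5% in C-iPSC and 75.9% and 69.4% in 4F-iPSC libraries, on 191 to 357 reads per library. No library of one cell type reached into another, though the stretch was chosen as a run of strong CpGs, so that mESCs and 4F-iPSCs differ there by choice.

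Of the cytoskeletal and cytoplasmic genes only 2 of 4 had enough CpGs. Vim, the intermediate filament protein vimentin, had 47.1% and 54.2% in mESC, 66.4% and 70.2% in C-iPSC and 80.4% and 79.8% in 4F-iPSC libraries over 5 CpGs. The 3 cell types stood apart, the step to 4F-iPSCs of 29.4 points was called, and that to C-iPSCs was not (adjusted p = 0.0670), although it was called without C-iPSC replicate 1 (19.5 points) or replicate 2 (15.7 points), with the dispersion from all 6 libraries, by limma with and without the replicate block, and without CpGs inside CCGG. S100a4, the calcium-binding protein also named FSP1, was called in 4F-iPSCs as well, although C-iPSC replicate 2 at 72.5% exceeded both 4F-iPSC libraries, at 69.2% and 64.0%. Acta2, smooth muscle actin, and Tagln, an actin-binding protein, had 2 compared CpGs each and were not tested. Acta2 was at 42.0% and 41.0% in mESCs and at 84.3% and 88.7% in 4F-iPSCs, with C-iPSCs at 63.6% and 88.1%.

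The transcription factors were lower in level outside promoters than the other groups. Their median was 24.3% and 31.0% in mESC, 37.1% and 51.0% in C-iPSC and 54.5% and 55.9% in 4F-iPSC libraries, against 51.3%, 58.1%, 62.3%, 73.8%, 82.0% and 83.5% for the collagens. Of 11 tested, 10 were called higher in 4F-iPSCs than in mESCs, beside 84.6% of all genes, and 6 in C-iPSCs, beside 40.6%. The median difference was 19.8 points for 4F-iPSCs. Snai1, the repressor Snail, had 24.3% and 26.2% in mESC, 37.1% and 51.0% in C-iPSC and 59.2% and 61.4% in 4F-iPSC libraries at 5 CpGs. All groups were apart, 35 points between the outer means. Tcf21, a factor of mesodermal and fibroblast progenitors, had 24.1% and 36.8%, 54.3% and 61.1%, and 64.2% and 66.0% at 5 CpGs. Its mESCs were set well below both iPSC types, by 34.6 points from the 4F-iPSCs.

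At the other end stood 4 genes, the homeobox factor Prrx1 of limb mesenchyme, the basic helix-loop-helix factor Twist1, the crosslinker Loxl1 given above, and the repressor Zeb2. Prrx1 had 6.64% and 6.94% in mESC, 5.04% and 6.72% in C-iPSC and 6.63% and 7.29% in 4F-iPSC libraries over 46 CpGs. It was the only gene of the 35 in which 4F-iPSC and mESC libraries overlapped, and the means differed by 0.169 points. Over the annotation, both 4F-iPSC libraries lay above both mESC libraries in 20361 of 22403 genes. Twist1 had 6.77% and 6.67%, 7.07% and 9.25%, and 12% and 13.9%, which put 4F-iPSCs apart by 6.21 points. That difference was called, but not without 4F-iPSC replicate 2 (5.23 points), by limma or with the dispersion from all 6 libraries. Zeb2 had 29.6% and 31.0% in mESC, 29.1% and 39.2% in C-iPSC and 40.4% and 42.5% in 4F-iPSC libraries. Its C-iPSC replicate 1 lay under both mESC libraries, while both 4F-iPSC libraries lay above all others.

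The Prrx1 and Twist1 stretches are shown as examples of low levels near a start. That of Twist1 lies within 1 kb of its start, so its CpGs are promoter CpGs, unlike those of the stretches above. Over all genes CpGs up to 500 bp downstream of a start had 3.47% to 7.06% in the 6 libraries. Prrx1 is at chr1:163312451-163312600, in a coding exon 1074 to 1212 bp from a start, and Twist1 at chr12:33958011-33958172, in its coding exon 345 to 495 bp from the start.
Prrx1: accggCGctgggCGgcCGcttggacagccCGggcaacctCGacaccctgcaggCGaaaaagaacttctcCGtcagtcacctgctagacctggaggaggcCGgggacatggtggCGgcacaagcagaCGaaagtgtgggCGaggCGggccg
Twist1: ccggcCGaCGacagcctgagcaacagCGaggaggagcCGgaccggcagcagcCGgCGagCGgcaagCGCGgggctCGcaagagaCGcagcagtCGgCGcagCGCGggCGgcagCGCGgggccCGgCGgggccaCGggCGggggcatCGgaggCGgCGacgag
The 25 Twist1 CpGs had levels between 1.23% and 2.40% in the 6 libraries, and the 12 Prrx1 CpGs between 2.64% and 6.84%. Thus the dense CpGs near the starts of Twist1 and Prrx1 were low in every library. Outside its promoter Prrx2, the close relative of Prrx1, had 14.6% and 13.3% in mESC, 18.4% and 21.3% in C-iPSC and 25.7% and 25.2% in 4F-iPSC libraries over 52 CpGs. It was higher in each iPSC type without overlap, and was called in 4F-iPSCs against mESCs by 11.5 points. The difference between C-iPSCs and mESCs was not called with all libraries, and was called without C-iPSC replicate 1 (7.33 points).

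In the fibroblast genes levels were lowest next to the transcript start in all 3 cell types. Within 500 bp downstream of a start, 522 CpGs had levels of 2.32% to 4.22% in the 6 libraries. From 2 to 5 kb downstream, 69 CpGs had 36.8% and 43.2% in mESC, 50.9% and 62.3% in C-iPSC and 68.7% and 69.9% in 4F-iPSC libraries. Cell types thus met near the start and separated further into the gene. Between 1 and 2 kb downstream the transcription factors, with 69 CpGs, were at 4.50% to 7.21%, while the other genes, with 72, were at 24.7% and 23.9% in mESC, 30.9% and 38.4% in C-iPSC and 42.8% and 46.1% in 4F-iPSC libraries. Over all genes CpGs at that distance had 11.1% and 11.2% in mESC, 12.7% and 16.6% in C-iPSC and 20.6% and 23.2% in 4F-iPSC libraries. In each library the pooled transcription factor CpGs lay under those of all genes and the others above, and the difference between the groups was not tested. From 5 to 10 kb the order was the other way, with 61.2%, 66.5%, 78%, 87.7%, 89.5% and 87.7% for 22 transcription factor CpGs and 45.6%, 49.5%, 61.9%, 69.8%, 74.5% and 75.5% for 60 others. At all other distances beyond 1 kb downstream the transcription factors lay under the others in each library.

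**Figure D3:**
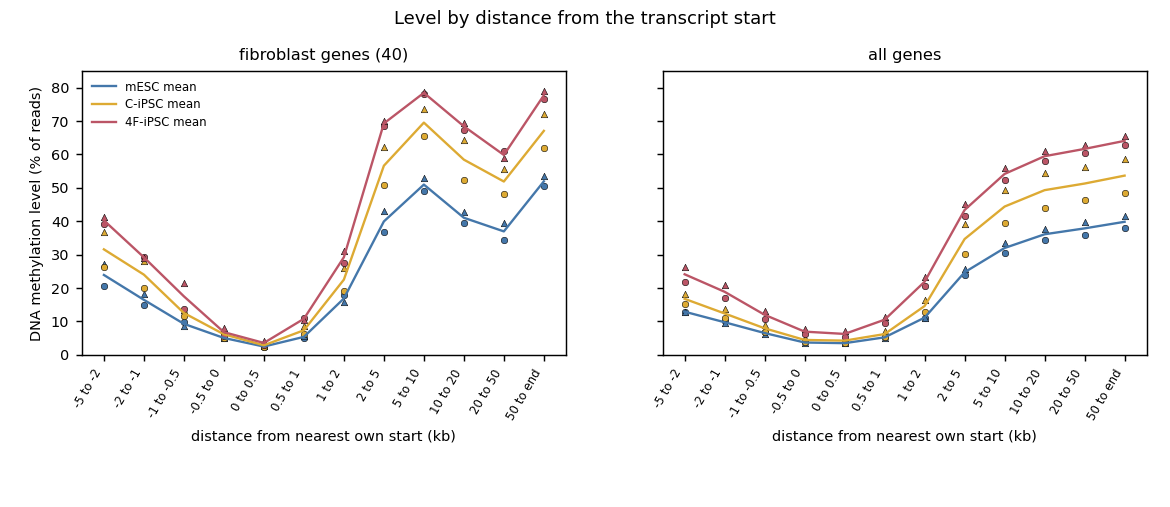
Methylation level (% of reads) by distance from the nearest transcript start of the gene (kb, negative upstream), with lines for the mean of each cell type and points for libraries (circles replicate 1, triangles replicate 2). In the fibroblast genes the 6 libraries lie between 2.32% and 4.22% just downstream of the start and between 36.8% and 69.9% from 2 to 5 kb.

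Single CpGs were compared with Fisher's exact test on reads summed over the replicates, and a CpG is named strong when its level differed by more than 33.3 percentage points with an unadjusted p under 0.05. This p covers counting error of the reads and not the spread between libraries, where the mean chi-square per CpG between replicates was 1.54 (mESCs), 2.37 (C-iPSCs) and 1.69 (4F-iPSCs), with 1 the value of sampling alone. In 4F-iPSCs against mESCs 270 of the 1095 remaining CpGs of the fibroblast genes were strong and higher, beside 25.6% of the remaining CpGs of all genes, and 13 of the 942 promoter CpGs, beside 2.13%. In C-iPSCs against mESCs the counts were 50 remaining CpGs, beside 4.98%, and 1 promoter CpG, in Ddr2, beside 0.387%. In 4F-iPSCs against C-iPSCs they were 10, beside 1.89%, and 1, the same Ddr2 CpG, beside 0.256%. This Ddr2 CpG has uneven strands, and without such CpGs, an alternative chosen after seeing the data, the promoter count was 0 in both comparisons. Leaving out single libraries moved the promoter count upward only in C-iPSCs against mESCs, and both ways between the iPSC types. As shares of the fibroblast CpGs the counts with all libraries are 24.7% and 1.38% for 4F-iPSCs over mESCs, 4.57% and 0.106% for C-iPSCs over mESCs, and 0.913% and 0.106% between the iPSC types. Only the 2 shares of remaining CpGs against mESCs were close to those of all genes. The others rest on few CpGs, and differences in share were not tested. Runx2 and Col5a1 held the most between 4F-iPSCs and mESCs, 25 of 112 and 21 of 71 remaining CpGs. Col1a1, Col6a3, Fbn1 and Runx1 followed with 18 each, of 35, 37, 46 and 126.

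There were 0 strong lower CpGs in the fibroblast genes in each comparison, beside 0.0367% of all compared CpGs in C-iPSCs against mESCs, 0.0331% in 4F-iPSCs relative to mESCs and 0.0281% between the iPSC types. At an unadjusted p under 0.05 and any size of difference, Fisher's exact test gave 14, 9 and 5 lower CpGs, against 576, 789 and 442 higher ones. The shares of all compared CpGs at this looser threshold are not given. The quasi-binomial model per CpG, with adjusted p, also gave 0 strong lower CpGs. Without C-iPSC replicate 2, 1 lower CpG appeared in C-iPSCs against mESCs. The strong higher counts with C-iPSCs moved with single libraries as well. For C-iPSCs against mESCs the total of 51 became 27 without C-iPSC replicate 2, 152 with C-iPSC replicate 1 left out and 128 when mESC replicate 2 was dropped. For 4F-iPSCs against C-iPSCs the total of 11 became 28 without C-iPSC replicate 2, 3 with C-iPSC replicate 1 left out and 17 without 4F-iPSC replicate 1.

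Many strong CpGs could be read on both DNA strands. Of 283 strong CpGs between 4F-iPSCs and mESCs, 183 had at least 10 reads on each strand in both cell types, and 127 of these differed by more than 33.3 points on both strands, while 182 were higher on both. For C-iPSCs against mESCs 13 of 34 such CpGs passed 33.3 points on both strands, and between the iPSC types 1 of 3. Strong CpGs also lay next to each other. Runs of at least 3 strong CpGs with gaps of at most 300 bp numbered 45 between 4F-iPSCs and mESCs, all of them higher in 4F-iPSCs, in 23 of the 37 genes with at least 3 compared CpGs, beside 32.9% of all such genes. They held 8.10% of the compared CpGs of the fibroblast genes, beside 5.89% over all genes. Genes differ in how many CpGs are compared, and these differences were not tested. Of these 45 runs 24 lay mainly in coding exons, 17 in introns and 4 upstream of the gene. Between C-iPSCs and mESCs there were 4 runs, in Col1a1, Col6a3, Thbs2 and Eng, beside 4.53% of all genes with a run, and between the iPSC types 0, beside 1.67%. The longest had 6 strong CpGs each, in Col6a1, Thbs1 and Meox1, and Eng, Col1a1, Dcn, Prrx2, Col6a3 and Thbs2 followed with 5. In the Meox1 run, in an intron 13497 bp from the start, mESCs had 41.4% and 52.3%, C-iPSCs 70.6% and 79.7% and 4F-iPSCs 82.4% and 81.9%. The Eng run, also in an intron, had 34.1% and 46.6%, 68.5% and 77.6%, and 88.3% and 86.2%, and the Col6a3 run, in a coding exon, 46.8% and 64.0%, 78.5% and 83.0%, and 92.2% and 90.9%. Runs are chosen for their difference between 4F-iPSCs and mESCs, and in these 3 each library of C-iPSCs lay above both of mESCs and below both of 4F-iPSCs.

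The cell types differed in how many CpGs were nearly fully methylated. Of the 1095 remaining CpGs, 4.75% had a level of at least 80% in mESCs, against 27.2% in C-iPSCs and 47.5% in 4F-iPSCs. CpGs under 30% made up 39.3%, 32.1% and 28.7%. Most of the shift was therefore from intermediate to high levels. Over all genes the shares of at least 80% were 3.93%, 22.0% and 43.5%.

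Promoters were a different picture from gene bodies, because most were unmethylated in all 3 cell types. The median promoter level of the 27 genes was 3.46% and 4.47% in mESC, 3.34% and 5.51% in C-iPSC and 4.82% and 6.53% in 4F-iPSC libraries, where the C-iPSC range overlapped both others and those of mESCs and 4F-iPSCs lay apart. Of the 27 promoters 20 were under 10% in all 3 cell types, 74.1% beside 72.3% of all genes. Vim over 27 CpGs lay between 1.38% and 2.36%, Zeb1 over 47 CpGs between 1.15% and 2.41%, Runx2 over 97 CpGs between 1.80% and 3.93%, and Fn1 over 37 CpGs between 1.58% and 4.01%. The promoters of Snai1, Twist1, Prrx2, Zeb2, Runx1, Col5a1, Fbn1 and Pdgfra were likewise under 5.1% in every library. The median difference was 1.76 points between 4F-iPSCs and mESCs, beside 0.919 over all genes, 0.625 between C-iPSCs and mESCs, beside 0.313, and 1.09 between the iPSC types, beside 0.723. Without CpGs inside CCGG, an alternative chosen after seeing the data, these medians were 0.454, 0.288 and 0.25 points over the 22 promoters that could be tested. With promoters of 0.5 kb they were 0.933, 0.35 and 0.683, and with promoters of any gene 2.81, 0.833 and 1.86. The median of C-iPSCs over mESCs was 1.18 without C-iPSC replicate 1 and 0.126 without replicate 2. That between the iPSC types was 0.222 and 1.59 without the same libraries, and 0.476 without 4F-iPSC replicate 2.

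**Figure D4:**
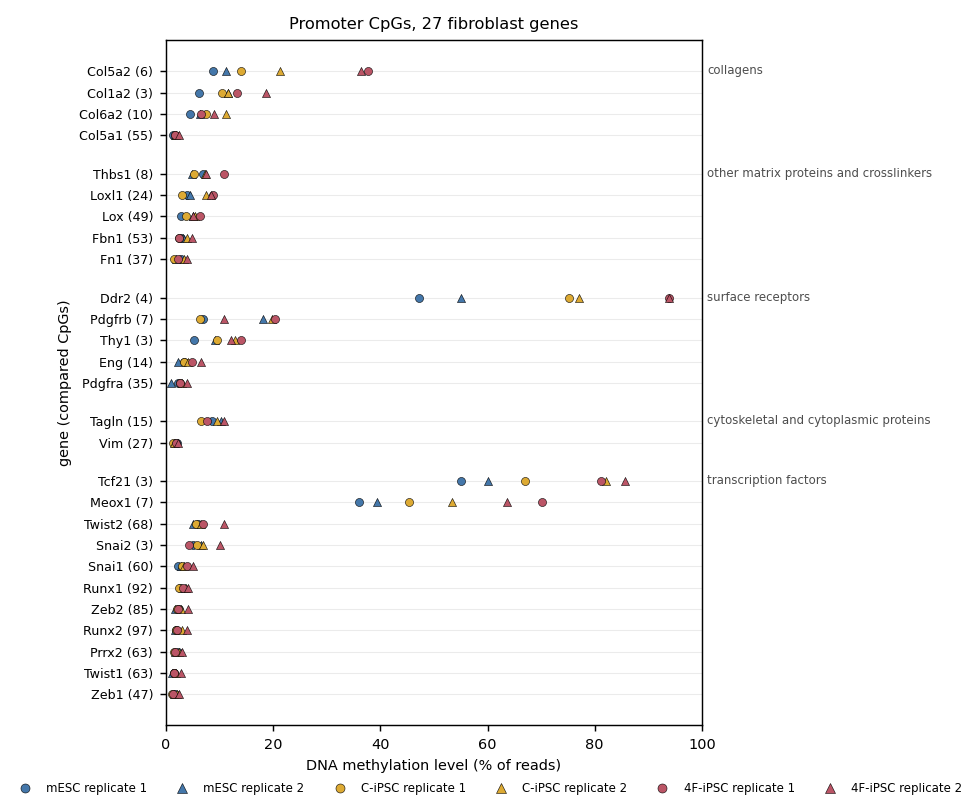
Methylation level (% of reads) of promoter CpGs in 27 fibroblast genes, grouped by role, with 1 point per library, circles for replicate 1 and triangles for replicate 2, and the number of compared CpGs in brackets. Ddr2, Tcf21, Meox1 and Col5a2 are the 4 genes at or above 30% in any cell type, and 20 promoters stay under 10% in all 3.

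Called higher in 4F-iPSCs than in mESCs were 4 of the 27 promoters, Ddr2, Meox1, Col5a2 and Tcf21, beside 23.8% of 19801 genes. Higher in C-iPSCs than in mESCs were 2, Ddr2 and Tcf21, beside 11.4%, and higher in 4F-iPSCs relative to C-iPSCs were 3, Ddr2, Meox1 and Col5a2, beside 8.06%. Lower promoters numbered 0 in each comparison, beside 0.167% of all genes in C-iPSCs against mESCs, 0.192% in 4F-iPSCs relative to mESCs and 0.121% between the iPSC types. The lower count was also 0 at an unadjusted p under 0.05 and by limma. Without 4F-iPSC replicate 1 the first count was 14 in place of 4. The second was 0 without mESC replicate 1 or replicate 2, 5 without C-iPSC replicate 1 and 1 when replicate 2 was left out. The third was 0 without C-iPSC replicate 1 and 0 without 4F-iPSC replicate 1 or replicate 2. With promoters of 0.5 kb on each side 22 genes could be tested, all with the same calls as before, and the counts were 1, 1 and 0, because the compared CpGs of Ddr2, Meox1 and Col5a2 lie further than that from a start. C-iPSC replicate 2 was above replicate 1 in 27 of 27 promoters, as in 91.6% of all genes.

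The compared CpGs of those 4 promoters lie away from the start itself, and their sequences are shown because they have the largest differences among the 27 tested promoters. Ddr2 is at chr1:170088248-170088410, in an intron 540 to 691 bp downstream of an internal start. Meox1 is at chr11:101893643-101893791, in a coding exon 589 to 726 bp downstream, and Col5a2 at chr1:45502504-45502659, in an intron 629 to 773 bp downstream. Tcf21 is at chr10:22820529-22820617, upstream of the gene at -437 to -360 bp.
Ddr2: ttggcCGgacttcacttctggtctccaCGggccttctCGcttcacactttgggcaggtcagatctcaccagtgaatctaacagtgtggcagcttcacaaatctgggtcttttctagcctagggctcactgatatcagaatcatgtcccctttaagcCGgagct
Meox1: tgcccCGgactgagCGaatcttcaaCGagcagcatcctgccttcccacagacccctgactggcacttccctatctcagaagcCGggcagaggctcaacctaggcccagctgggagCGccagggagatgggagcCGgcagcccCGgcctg
Col5a2: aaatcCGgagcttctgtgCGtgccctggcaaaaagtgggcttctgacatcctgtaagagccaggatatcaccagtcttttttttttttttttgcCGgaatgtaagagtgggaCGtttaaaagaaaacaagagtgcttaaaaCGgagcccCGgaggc
Tcf21: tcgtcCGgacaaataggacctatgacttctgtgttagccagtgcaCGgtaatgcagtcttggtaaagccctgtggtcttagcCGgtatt
These windows hold 3 to 7 compared CpGs each and so stand for a small piece of each promoter. The promoter sequences of Ddr2, Meox1 and Col5a2 are poor in CpGs, with 15.3, 20.0 and 14 per kb, and that of Tcf21 has 36.2, against 92.0 for Twist1 and 101 for Zeb1. Tagln, Col6a2 and Thy1, with 17, 20.4 and 20.7 per kb, are as poor and were low and not called. Col6a1 and Sparc, with 10 and 11.7 per kb, are poorer still, and their 2 compared CpGs each had high levels, given below. These densities are of the whole promoter sequence, and a relation of density to level was not tested.

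Ddr2 encodes a receptor that binds fibrillar collagen. Its 4 CpGs had 47.1% and 55.1% in mESC, 75.1% and 77.0% in C-iPSC and 93.8% and 93.8% in 4F-iPSC libraries, on 87 to 260 reads per library. Replicates were close and the 3 cell types far apart, 42.7 points between 4F-iPSCs and mESCs, 24.9 between C-iPSCs and mESCs (adjusted p = 0.0204) and 17.7 between the iPSC types (adjusted p = 0.00392). Part of this came from the CpG at 562 bp, with 0% and 9.09% in mESC, 55.8% and 60.9% in C-iPSC and 92.9% and 92.9% in 4F-iPSC libraries. In mESCs only 3 reads of that CpG came from the plus strand, against 50 at the CpG 10 bp away, while C-iPSCs had 27 and 4F-iPSCs had 56. Without CpGs of such uneven strands, an alternative added after seeing the data, the difference of 29.6 points between 4F-iPSCs and mESCs was still called. C-iPSCs against mESCs then gave 17.7 points and 4F-iPSCs against C-iPSCs 11.9, neither of them called. With all 4 CpGs, the call of C-iPSCs against mESCs was lost without mESC replicate 1 (20.9 points), mESC replicate 2 (28.9) or C-iPSC replicate 1 (25.9), and that between the iPSC types without C-iPSC replicate 1 (16.8), 4F-iPSC replicate 1 (17.7) or 4F-iPSC replicate 2 (17.8). The cause of the uneven strands was not tested.

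Meox1, a homeobox factor of somites that also marks activated fibroblasts, had 36.0% and 39.4% in mESC, 45.4% and 53.4% in C-iPSC and 70.2% and 63.7% in 4F-iPSC libraries over 7 CpGs. The groups did not overlap, with 29.3 points between 4F-iPSCs and mESCs and 17.5 between the iPSC types (adjusted p = 0.0119), while the 11.7 points of C-iPSCs over mESCs were not called (adjusted p = 0.0796). Its CpG at 717 bp had 0% and 0% in mESC, 33.8% and 27.9% in C-iPSC and 47.7% and 32.9% in 4F-iPSC libraries. There mESCs had 0 plus-strand reads, against 83 in C-iPSCs and 71 in 4F-iPSCs. Whether the mouse strains differ in sequence here or at the uneven Ddr2 CpG was not tested, and if they do, the values near 0% in mESCs are not methylation levels. Without CpGs inside CCGG the call between the iPSC types was lost, at 16.2 points. It was also lost without C-iPSC replicate 1 (13.5 points), 4F-iPSC replicate 1 (14.3) or 4F-iPSC replicate 2 (20.7), and without C-iPSC replicate 1 the difference from mESCs was called (15.7), as it was by limma with the replicate block. That difference of C-iPSCs from mESCs lay between 7.75 and 15.7 points with single libraries left out.

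Col5a2, the partner chain of Col5a1, had 8.74% and 11.3% in mESC, 14.1% and 21.3% in C-iPSC and 37.7% and 36.4% in 4F-iPSC libraries over 6 CpGs. Its C-iPSCs were nearer to the mESCs and its 4F-iPSCs stood alone, 27 points above mESCs and 19.4 above C-iPSCs (adjusted p = 0.00121). The 7.66 points between C-iPSCs and mESCs were not called (adjusted p = 0.285), and lay between 4.05 and 11.3 with single libraries left out. This difference was called without C-iPSC replicate 1 (11.3 points). The call between the iPSC types was lost without that library (15.7 points), 4F-iPSC replicate 1 (18.7) or 4F-iPSC replicate 2 (20). Tcf21 had 55.0% and 60% in mESC, 66.9% and 82.1% in C-iPSC and 81.2% and 85.6% in 4F-iPSC libraries at 3 CpGs. Here C-iPSC replicate 2 fell between the 4F-iPSC libraries, so that the iPSC types overlapped. Tcf21 was called against mESCs in 4F-iPSCs, by 25.9 points, and in C-iPSCs, by 17.0 points (adjusted p = 0.0439). The latter call was lost without mESC replicate 1 (14.5 points), mESC replicate 2 (19.6) or C-iPSC replicate 2 (9.45), and with promoters of any gene. The 8.89 points between the iPSC types were not called (adjusted p = 0.401). This difference lay between 1.3 and 16.5 points with single libraries left out. It was smallest without C-iPSC replicate 1, and without C-iPSC replicate 2 the 4F-iPSCs were called above the C-iPSCs (16.5). For all 4 promoters the difference between 4F-iPSCs and mESCs passed with each library left out in turn.

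**Figure D5:**
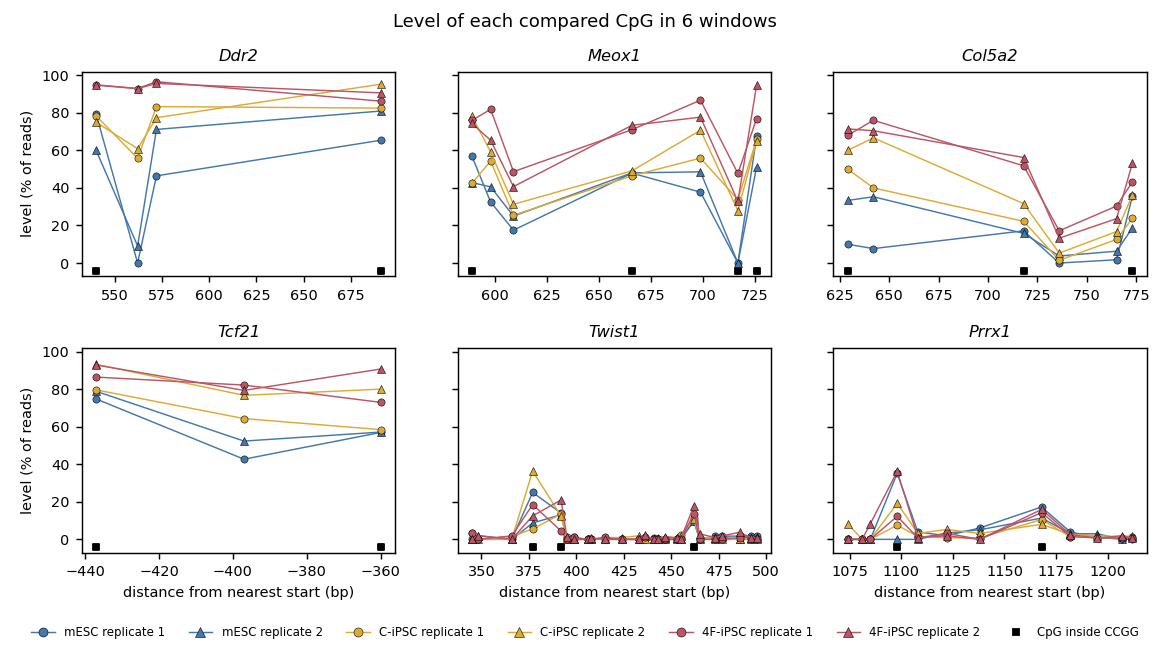
Level of each compared CpG (% of reads) against the distance from the nearest transcript start (bp) in windows of 6 genes, with 1 line per library and black squares under CpGs inside CCGG. In Ddr2 the CpG at 562 bp has 0% and 9.09% in mESCs against 92.9% in both 4F-iPSC libraries, and in Twist1 and Prrx1 most CpGs are near 0 in all 6 libraries.

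Col6a1 and Sparc had only 2 promoter CpGs each and were not tested. For Col6a1 they were at 59.7% and 69.2% in mESC, 65.8% and 84.1% in C-iPSC and 92.6% and 94.3% in 4F-iPSC libraries, and for Sparc at 47.8% and 69.0%, 57.4% and 78.6%, and 80.3% and 81.6%. In both genes 4F-iPSCs stood above the rest, and mESC replicate 2 overlapped the C-iPSCs. Twist2, a relative of Twist1, had a low promoter, between 5.01% and 10.8%, with 1 methylated patch of 4 CpGs at -974 bp. That patch had 16.9% and 25% in mESC, 33.9% and 39.6% in C-iPSC and 56.2% and 52.3% in 4F-iPSC libraries. The patch was chosen as a run of strong CpGs, so that mESCs and 4F-iPSCs differ there by choice, and the promoter as a whole was not called.

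Genes of related function, from lists beside the 40, were measured in the same way. Of 30 further matrix and TGF-beta pathway genes 27 could be tested outside promoters, and 27 were called higher in 4F-iPSCs than in mESCs, beside 84.6% of all genes, 18 in C-iPSCs, beside 40.6%, and 3 between the iPSC types, beside 12.1%, where limma gave 10 and an unadjusted p under 0.05 gave 14. Their median differences were 28.2, 17.6 and 10.3 points. The largest were in Bgn, the proteoglycan biglycan, with 48.5 points, and Eln, elastin, with 37.6. Of 25 promoters of that list 2 were called in 4F-iPSCs against mESCs and 0 in the other comparisons, beside 23.8%, 11.4% and 8.06% of all genes for 4F-iPSCs and C-iPSCs against mESCs and for the iPSC types. In the comparisons with 0 the quasi-binomial model gave 1 for C-iPSCs and 3 between the iPSC types at an unadjusted p under 0.05, and limma 0 and 1 by adjusted p.

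Of 12 epithelial genes, such as Cdh1 and Epcam, which pluripotent cells express and fibroblasts repress, 10 were called higher outside promoters in 4F-iPSCs, beside 84.6% of all genes, 5 in C-iPSCs, beside 40.6%, and 0 between the iPSC types, beside 12.1%, also 0 there at an unadjusted p under 0.05, and by limma 0 adjusted and 2 unadjusted. Their levels were lower, with medians of 20.4% and 18.1% in mESC, 25.7% and 36.0% in C-iPSC and 36.8% and 40.6% in 4F-iPSC libraries, and their median differences were 14.2, 6.64 and 6.29 points. The largest were in the keratin genes Krt8, with 30.8 points, and Krt18, with 28.7. Of their 11 tested promoters 0 were called in each comparison, by the quasi-binomial model and by limma, beside 23.8% of all genes for 4F-iPSCs over mESCs, 11.4% for C-iPSCs and 8.06% between the iPSC types, and 1 passed an unadjusted p under 0.05 in the quasi-binomial model, in 4F-iPSCs against mESCs.

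Promoters of pluripotency genes, which are methylated in fibroblasts, were given beside these values because the labels name feeder fibroblasts in the cultures. Pou5f1, which encodes Oct4, had 5.33% and 9.87% in mESC, 5.59% and 6.08% in C-iPSC and 13% and 24.3% in 4F-iPSC libraries over 7 CpGs. Zfp42 had 6.77% and 6.34%, 6.41% and 10.3%, and 9.21% and 18.3% over 7 CpGs. Both promoters were highest in 4F-iPSC replicate 2, and Pou5f1 in 4F-iPSCs was called above C-iPSCs by 12.8 points, while against mESCs 0 of the 2 promoters were called in either iPSC type (2 and 0 at an unadjusted p under 0.05 in 4F-iPSCs and C-iPSCs, 1 and 0 by limma). The Pou5f1 CpGs had 488 and 527 reads in mESC libraries but 8407 and 7219 in C-iPSC and 8509 and 7286 in 4F-iPSC libraries, against 205 to 391 in each library for Zfp42. The reporter of OG2 cells carries Pou5f1 sequence, so the gene and further copies of it cannot be told apart in these reads. Nanog had only 2 compared promoter CpGs, and Dppa3 and Tdgf1 had 0. Whether fibroblast DNA was part of the libraries was not tested.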

How the data were processed

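Libraries of reduced representation bisulfite sequencing were used, 2 for each of mESCs, C-iPSCs and 4F-iPSCs, grouped by their labels. The authors aligned read pairs to mm10 with BSMAP 2.90, and the deposited files give, per CpG, counts of all reads and of methylated reads, in total and by strand. The deposited fraction of methylated reads per CpG served only for a check against the ratio of the counts. Nothing was normalised.

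CpGs were joined to the GENCODE basic gene annotation for mouse. A CpG was compared when each cell type had at least 10 reads summed over its 2 libraries. Genes ran from 5 kb upstream to the gene end, and promoters were 1 kb on each side of a transcript start. With 10 reads a single CpG level is coarse, and counting error over the reads of a gene is part of the spread between libraries, so no separate interval is given.

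Level differences of genes with at least 3 compared CpGs in a class were tested, two-sided, with a quasi-binomial model on read counts, without covariates. Its dispersions were moderated across genes with limma 3.58.1 in R 4.3.3 and kept at 1 or above. Only that moderation used a covariate, the log of the mean reads of the gene. The p was adjusted by Benjamini and Hochberg over all genes of the class. An exact permutation test of 2 against 2 libraries cannot give a two-sided p below 0.333. For single CpGs, reads were summed over replicates and compared by Fisher's exact test, two-sided and unadjusted. Both tests were tested on simulated data or against scipy. Other tools were Python 3.11.15, numpy 2.4.6, scipy 1.17.1, pandas 2.3.3, numba 0.67.0, matplotlib 3.10.9 and, in R, the data.table package at version 1.17.8.

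Alternatives varied the read minimum, the promoter width, the gene range, repeats, the size of a strong difference, the test, a replicate block and the libraries, and, chosen after seeing the data, CpGs inside CCGG, CpGs with uneven strands and crossed replicate numbers. The members and lists were chosen with earlier results of these data known, namely the 40 fibroblast genes, the further matrix and TGF-beta pathway genes, the epithelial genes and the pluripotency promoters.

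Genes named with their values are the 6 largest and 4 smallest differences between 4F-iPSCs and mESCs outside promoters, the 4 largest between the iPSC types, up to 8 promoters with at least 10 points between any 2 cell types, and up to 8 genes with the most strong CpGs in a run, with 2 genes per other list. A tie at the last place of the runs, between Col6a3 and Thbs2, was broken by the larger level difference, a choice made after seeing the data. Other genes named in the text were chosen after their values were seen.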

Additional observations from a re-analysis of the deposited data

How the results depend on the processing

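The median differences of the fibroblast genes kept their direction under all alternatives run. Leaving out each library in turn, the median outside promoters lay between 11 and 21.7 points for C-iPSCs against mESCs, between 23.8 and 29.4 for 4F-iPSCs over mESCs, and between 4.58 and 14.1 for the iPSC types. In promoters the ranges were 0.126 to 1.18, 1.20 to 2.09 and 0.222 to 1.59 points. Where this leaves an arm with 1 library, that library is assumed to vary like the others. Of 3285 values of single genes under alternatives, 3066 kept their side of the threshold, 93 no longer passed and 126 newly passed, and 0 called differences changed direction. Small differences that were not called could change sign, as in the Lox promoter with promoters of 0.5 kb.

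Counts moved more. Without single libraries, strong CpGs ranged from 27 to 152 for C-iPSCs against mESCs, with 0 to 1 lower, and from 3 to 28 between the iPSC types. Called promoters ranged from 0 to 5, 4 to 14 and 0 to 4 in C-iPSCs against mESCs, 4F-iPSCs relative to mESCs and 4F-iPSCs relative to C-iPSCs. Called genes outside promoters ranged from 0 to 30 in the first and 0 to 31 in the last of these.

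With a difference above 0.25, strong CpGs numbered 208, 496 and 37 in the same order, with 2 lower between the iPSC types, and above 0.5 they numbered 5, 36 and 1. Strong promoter CpGs in 4F-iPSCs against mESCs, 13 in the main setting, numbered 1 with promoters of 0.5 kb and 25 with promoters of any gene. Between the iPSC types the count of 11 strong CpGs became 7 with at least 20 reads and 6 with at least 10 reads in each library. By the quasi-binomial model with adjusted p it became 3, where both the test and the adjustment differ from the main setting. Without CpGs inside CCGG, an alternative chosen after seeing the data, 187 were strong in 4F-iPSCs against mESCs and 7 between the iPSC types, where 9 of 31 genes were called outside promoters and 1 of 22 promoters was. In C-iPSCs against mESCs 0 of 22 promoters were called, since Ddr2 and Tcf21 had under 3 CpGs left, and no call changed among the 22.

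The 3 genes called outside promoters between the iPSC types became 12 with the dispersion from all 6 libraries, 11 by limma, 19 by limma with the replicate block, 5 with promoters of 0.5 kb, 1 with promoters of any gene and 1 with the gene body alone. Promoters of 0.5 kb gave 1, 1 and 0 called promoters among 22 tested, since the CpGs of Ddr2, Meox1 and Col5a2 fall outside them, and changed no call among the 22. Promoters of any gene gave 1 in C-iPSCs and 9 in 4F-iPSCs against mESCs. The gene body alone gave 1 of 26 in C-iPSCs against mESCs, since the Tcf21 CpGs lie upstream, and changed no call among the 26. Leaving out CpGs with uneven strands (chosen after seeing the data) also gave 1. Where no reason is given, the cause was not tested.

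With the replicate number as a block, strong CpGs numbered 49, 284 and 9. With crossed replicate numbers, chosen after seeing the data, 283 were strong in 4F-iPSCs against mESCs.

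Depth limits single CpGs, with 31 to 54 reads at the median covered CpG per library. With at least 5 reads in place of 10, still 27 promoters could be tested.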

Other observations

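CpGs inside CCGG, the site cut in library preparation, had other levels than CpGs elsewhere. In promoters of the fibroblast genes, 203 CpGs inside CCGG had 16.6%, 14.7%, 14%, 19.6%, 17.4% and 26% in mESC, C-iPSC and 4F-iPSC replicates 1 and 2 in turn, and 739 others 1.43%, 1.78%, 1.96%, 2.70%, 3.23% and 3.20%. Over all genes the promoter values were 18.1%, 15.5%, 15.6%, 21.9%, 19.6% and 28.9% inside, and 1.93%, 2.24%, 2.52%, 3.10%, 4.88% and 5.17% elsewhere. In Twist1, 9 promoter CpGs inside CCGG had 12.3%, 9.58%, 11.4%, 14.3%, 11.8% and 22.7%, and the other 54 had 0.245% to 0.8%. The cause was not tested.

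The share of reads from the plus strand differed by over 0.3 between cell types at 23 of the 2037 CpGs of the fibroblast genes (1.13%), beside 1.51% of all compared CpGs. Of the 23, 3 were strong in 4F-iPSCs against mESCs and 1 in C-iPSCs.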
